A study of Mus musculus with 6 samples.

Results

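The complement components measured here were C1qa, C1qb, C1qc, C2, C3, C4b, Cfb, Masp1 and Serping1, which are 9 of the 45777 genes in the deposited table. They were chosen by name as complement proteins transcribed in fat, and all 9 passed the filter on low counts. Polyadenylated RNA of epididymal white adipose tissue, the visceral fat pad beside the testis, was sequenced from C57BL/6-background mice fasted for 24 h. The 3 libraries labelled KO were Adipoq-Cre; Pak4 flox/flox, in which the adiponectin promoter drives Cre in adipocytes and not in the other cells of the pad. The 3 libraries labelled WT were Pak4 flox/flox without Cre, so both groups carried the floxed alleles of Pak4, a p21-activated serine/threonine kinase. Age and sex are not given in the sources used here. The labels number the libraries and do not say whether the numbers stand for separate mice. The spread behind each p-value is therefore one between libraries and may be technical.

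Complement is a cascade of plasma and tissue proteases that ends in the marking or lysis of targets. The classical pathway starts when C1q, built from the chains of C1qa, C1qb and C1qc, activates C1r and C1s. The lectin pathway starts with MASP proteases. Both cut C4 and C2 into a C3 convertase, while the alternative pathway builds its own convertase from C3b and factor B (Cfb), which factor D cuts. Fat is the classical source of factor D, first described in adipocytes as adipsin, and tissue macrophages are the main source of C1q in many organs.

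None of the 9 components passed edgeR's quasi-likelihood test after Benjamini-Hochberg adjustment, where 0.0168% of the 17820 genes tested did (3 lower and 0 higher in the libraries labelled KO, or 3 lower and 1 higher when scaled by library size alone, while 1721 were higher and 1730 lower at an unadjusted p under 0.05). C2 and C3 had the largest differences upwards, by 1.89-fold and 1.65-fold, and their groups did not overlap. Cfb and Masp1 were lower, at 0.765 and 0.655 of the WT level, and their groups did not overlap either. The chains of C1q, C4b and Serping1 overlapped between the groups. At an unadjusted p under 0.05, 2 components were higher (C2 and C3) and 2 lower (Cfb and Masp1), beside 9.66% and 9.71% of all genes tested. Groups without overlap were found for the same 2 and 2 components, beside 13.7% of all genes tested on the higher side and 12.5% on the lower side (26.2% on either). DESeq2 called 2 components higher (C2 and C3) and 1 lower (Masp1), beside 2.89% and 4.27% of the genes it adjusted (7.16% in either direction). Without KO 1, edgeR called 2 components (C2 and C3), both higher, beside 2.08% of genes called higher and 5.57% called in either direction. The median log2 fold change of the 9 components was 0.20, against 0.015 over all genes tested.

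The libraries held between 62854465 and 72005658 counts. A floor of 3 counts corresponds to between 0.0403 and 0.0490 CPM (the normalised read count, per 1e+06 counts and scaled by TMM factors), far below every component. Pak4, the targeted gene, went against its labels, with 12.1, 10.7 and 9.06 CPM in the libraries labelled KO 1, 2 and 3, against 5.53, 5.03 and 5.83 CPM in those labelled WT 1, 2 and 3. Its log2 fold change was 0.96 ± 0.14 (SE), with an edgeR adjusted p of 0.0898, 0.0313 without KO 1, and between 8.49e-06 and 0.403 over all the alternatives. These are counts over the whole gene, and the floxed exons are not named in the labels, so they do not show whether the deleted part was read. Every direction given for a complement gene is therefore one between labels. The first principal component held 44.1% of the variance, and there KO 1 lay at -1.85, while KO 2 and KO 3 lay at 40.9 and 53.5 and the libraries labelled WT between -53.5 and -12.3. Where leaving out KO 1 changed the call of a named gene, its adjusted p without KO 1 is given too.

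RefSeq places the chains of C1q next to each other on mouse chromosome 4 (GRCm38.p6, minus strand). C1qb lies at chr4:136880126-136886200, C1qc at chr4:136889801-136892936 and C1qa at chr4:136895916-136898844, with gaps of 3600 and 2979 bases. Chromosome 17 carries 4 of the components on its minus strand. C4b lies at chr17:34728139-34743902, Cfb at chr17:34856374-34862514 and C2 at chr17:34862602-34882100 in the major histocompatibility complex, with 87 bases between Cfb and C2. C3 lies apart from them at chr17:57203967-57228136. Serping1 lies at chr2:84765360-84775444 and Masp1 at chr16:23451785-23521240, both on the minus strand.

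The RefSeq promoter table held 3 of the 9 components. The 250 bases before the start given in that table are shown because C1q is known as a product of macrophages and C3 as an acute phase protein. Each is read 5′ to 3′ on the gene's strand (GRCm38.p6, minus strand), at chr4:136886201-136886450 for C1qb, chr4:136892915-136893164 for C1qc and chr17:57228137-57228386 for C3. The start in the table need not be the end of the gene span: the C1qc window reaches 22 bases into the span given above, and those of C1qb and C3 lie wholly before theirs. Capitals mark matches to the motifs named after them, and distances are counted from the table's start.
C1qb: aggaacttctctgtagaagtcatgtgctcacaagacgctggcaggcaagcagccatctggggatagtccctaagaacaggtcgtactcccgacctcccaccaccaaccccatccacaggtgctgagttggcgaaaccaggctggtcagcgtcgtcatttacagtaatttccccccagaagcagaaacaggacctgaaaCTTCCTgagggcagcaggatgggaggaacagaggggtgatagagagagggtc
C1qc: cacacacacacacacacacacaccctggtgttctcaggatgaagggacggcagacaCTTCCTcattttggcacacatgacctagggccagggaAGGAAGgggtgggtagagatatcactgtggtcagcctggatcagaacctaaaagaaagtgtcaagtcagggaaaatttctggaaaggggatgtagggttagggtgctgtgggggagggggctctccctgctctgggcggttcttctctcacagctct
C3: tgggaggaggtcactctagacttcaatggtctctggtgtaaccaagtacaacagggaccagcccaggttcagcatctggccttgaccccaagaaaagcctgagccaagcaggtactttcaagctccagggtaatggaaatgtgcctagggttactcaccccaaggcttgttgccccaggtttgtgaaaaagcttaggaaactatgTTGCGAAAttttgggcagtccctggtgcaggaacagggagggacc
Both strands were searched for TTGCNNAA, the site of C/EBP factors of adipocyte and acute-phase transcription, and for AGGAAG, a core bound by ETS factors such as PU.1 of macrophages. The search also took TTCNNNGAA (STAT), the interferon-stimulated response element and the NF-kappaB motif. C1qb held the ETS core on the reverse strand, 52 to 47 bases before the start. C1qc held it at 194 to 189 bases on the reverse strand and at 157 to 152 bases on the forward strand. C3 held 1 C/EBP match, TTGCGAAA, 45 to 38 bases before the start. The matches do not overlap one another. Of 32851 promoters cut to the same length, 29.5% held the ETS core, 9.56% the C/EBP letters, 7.02% the STAT letters, 2.98% the interferon-stimulated response element and 0.356% the NF-kappaB motif. The last 3 motifs had no match in these windows, and a match is a description of letters, not a bound site.

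Levels between genes are compared in the deposited TPM values, which are scaled by transcript length. Over all 6 libraries C3 was the most abundant component, at 855 ± 319 TPM (SD, n = 6), 128th among all genes of the table. Below it stood Serping1 at 596 ± 123 TPM, C1qb at 562 ± 68.3 TPM, C1qc at 510 ± 61.1 TPM, C4b at 502 ± 58.8 TPM, C1qa at 427 ± 58.0 TPM, Cfb at 340 ± 59.7 TPM and C2 at 262 ± 110 TPM. Masp1 was far below all of these, at 1.51 ± 0.34 TPM and rank 12956, and C2 exceeded it by 73.6-fold to 325-fold. C3 was above Serping1, and C1qb above C1qc, in 6 of 6 libraries. Serping1 and C1qb could not be ordered (Serping1 higher in 3 of 6 libraries), C4b was above C1qc in 5 of 6, and Cfb was above C2 in 4 of 6. The exceptions for the last pair were KO 2 and KO 3, where C2 was the higher. The 9 components together summed to 3897, 4943 and 4794 TPM in KO 1, 2 and 3, against 3793, 3545 and 3360 TPM in WT 1, 2 and 3. Every KO sum was thus above every WT sum, by little for KO 1.

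**Figure D1:**
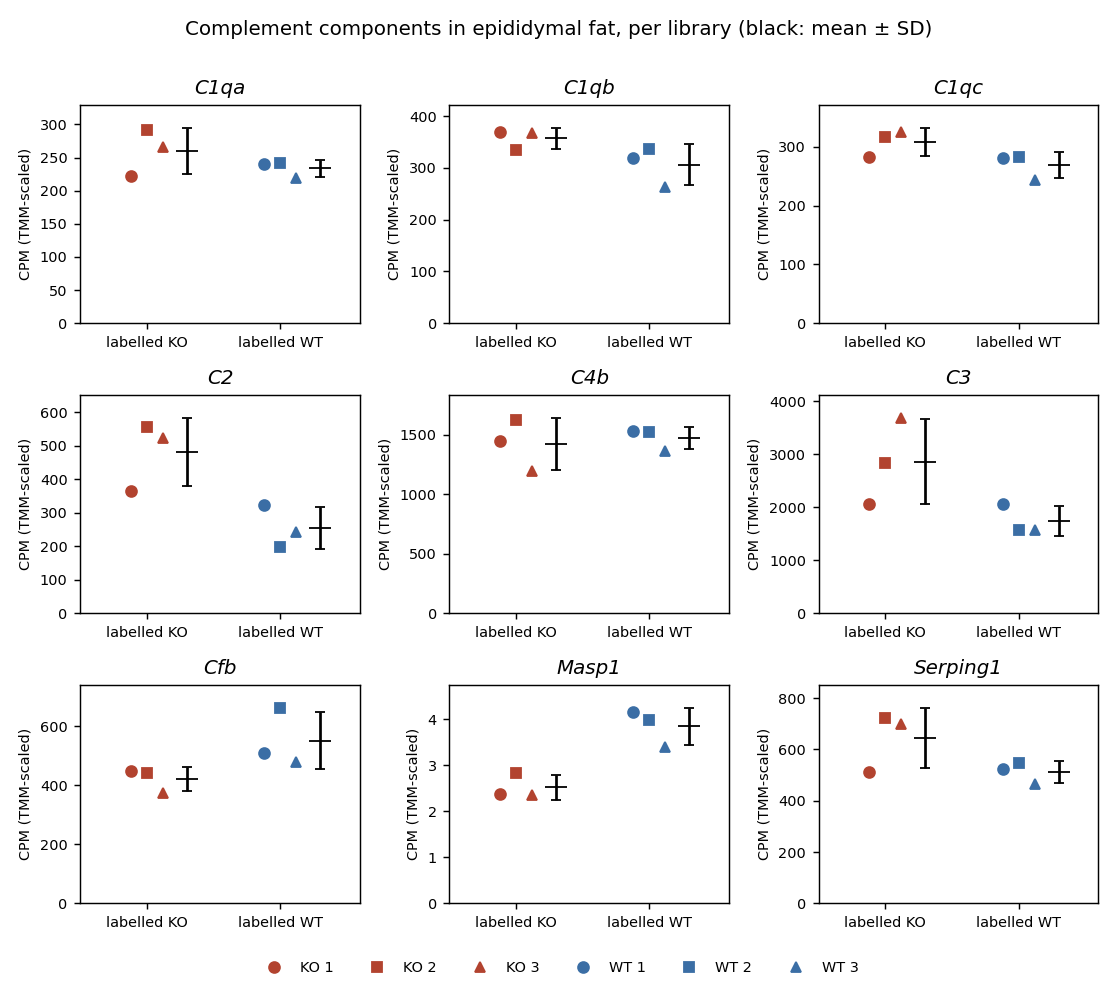
Normalised read counts (CPM scaled by TMM factors, linear axes from 0) of the 9 complement components in each library, labelled KO left and labelled WT right, with 1 symbol per library and the group mean ± SD in black (n = 3 each). C2 and C3 lie higher in all libraries labelled KO, Cfb and Masp1 lie lower, and the other 5 overlap between the groups.

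C1qb encodes the B chain of C1q, the subunit that recognises antibody-coated and dying cells. It had 369, 334 and 368 CPM in KO 1, 2 and 3, against 319, 337 and 262 CPM in WT 1, 2 and 3. WT 2 lay above KO 2, so the groups overlapped, and the means were 357 ± 19.8 CPM in the libraries labelled KO and 306 ± 39.2 CPM in those labelled WT (SD, n = 3 each). The log2 fold change was 0.22 ± 0.13 (SE), with an edgeR adjusted p of 0.356. C1qc, the C chain, had 282, 317 and 326 CPM in KO 1, 2 and 3, against 281, 283 and 243 CPM in WT 1, 2 and 3. KO 1 lay just below WT 2, and its log2 fold change was 0.20 ± 0.11 (edgeR adjusted p 0.359). C1qa, the A chain, had 223, 291 and 266 CPM in KO 1, 2 and 3, against 240, 242 and 219 CPM in WT 1, 2 and 3. KO 2 and KO 3 were above every library labelled WT and KO 1 was not, with a log2 fold change of 0.15 ± 0.12 (edgeR adjusted p 0.511). No chain passed the test under any alternative, the lowest adjusted p being 0.151 for C1qb, 0.160 for C1qa and 0.167 for C1qc.

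The chains assemble in equal numbers, and their transcripts were of similar but unequal abundance. The ratio of C1qa to C1qb in TPM was 0.615, 0.889 and 0.737 in KO 1, 2 and 3, against 0.767, 0.733 and 0.851 in WT 1, 2 and 3. It averaged 0.747 ± 0.137 in the libraries labelled KO and 0.784 ± 0.0605 in those labelled WT (SD, n = 3 each), a difference below the spread. The ratio of C1qc to C1qb was 0.796, 0.991 and 0.924 in KO 1, 2 and 3, against 0.918, 0.874 and 0.967 in WT 1, 2 and 3. C1qb was thus the most abundant chain transcript in every library, and C1qa the least abundant.

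In bulk tissue, fewer cells of a type and less RNA per cell cannot be told apart, so the chains were set beside 20 macrophage markers. Of these, 19 had a log2 fold change above 0, as did 9287 of all 17820 genes tested, and their median was 0.27. An unadjusted p under 0.05 was found for 6, all higher, beside 9.66% of all genes tested, and none passed the adjusted edgeR test. Their summed level was 2234 to 3339 TPM in the libraries labelled KO and 2135 to 2700 TPM in those labelled WT. As a mean log2 CPM, the C1q chains stood at 8.16, 8.29 and 8.31 in KO 1, 2 and 3, against 8.12, 8.15 and 7.91 in WT 1, 2 and 3, so that all libraries labelled KO were higher, KO 1 barely above WT 2. Their means were above the macrophage mean by 2.92, 2.65 and 2.68 in KO 1, 2 and 3, against 3.02, 2.89 and 2.71 in WT 1, 2 and 3. That gap averaged 2.75 ± 0.146 in the libraries labelled KO and 2.88 ± 0.156 in those labelled WT (SD, n = 3 each), and the groups overlapped. Relative to Csf1r, the growth factor receptor of macrophages, C1qb stood at 7.04, 4.64 and 5.17 in KO 1, 2 and 3, against 5.64, 6.39 and 4.84 in WT 1, 2 and 3, as ratios of TPM. The highest and the lowest of these ratios were both in libraries labelled KO. The part of macrophage number in the levels of C1q was not tested.

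**Figure D2:**
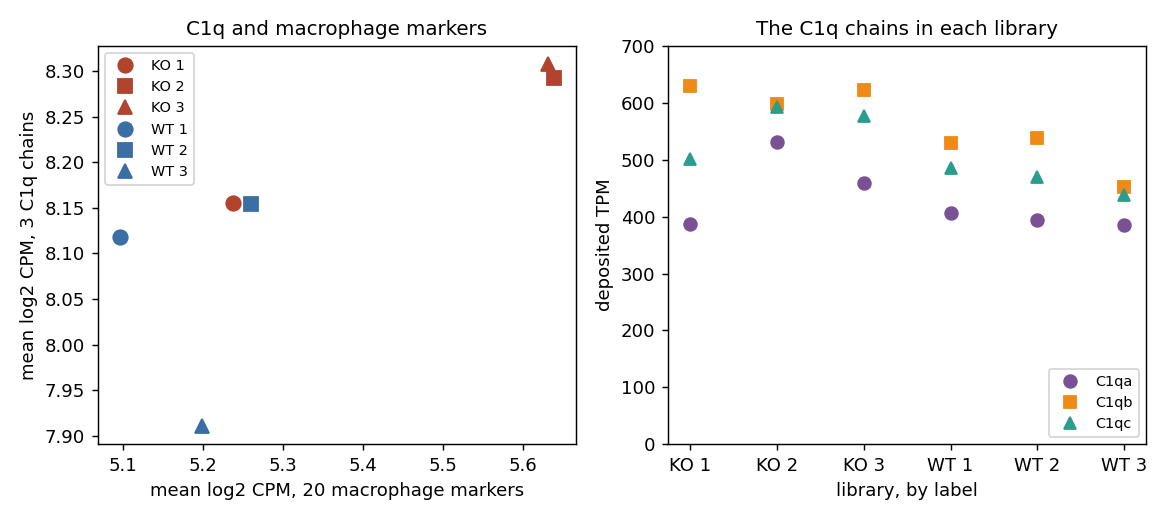
Left, the mean log2 CPM of the C1q chains (y) against the mean log2 CPM of 20 macrophage markers (x) in each library, and right, the deposited TPM of each chain by library. KO 2 and KO 3 lie highest on both axes of the left plot while KO 1 lies beside WT 2, barely above it on the y axis, and C1qb is the highest chain in every library.

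C2 encodes the serine protease that joins C4b in the classical and lectin C3 convertase, and it had the largest difference of the 9. It had 366, 554 and 523 CPM in KO 1, 2 and 3, against 323, 197 and 242 CPM in WT 1, 2 and 3. All libraries labelled KO were above all labelled WT, with KO 1 and WT 1 closest to each other. The means were 481 ± 101 CPM in the libraries labelled KO and 254 ± 63.8 CPM in those labelled WT (SD, n = 3 each). On the log2 scale the difference was 0.92 ± 0.22 (SE), with an edgeR adjusted p of 0.147 and an unadjusted one of 0.0036. The adjusted p depended on the tool and on 1 library: it was 0.0027 with DESeq2, and 0.0404 in edgeR without KO 1, at a log2 fold change of 1.08.

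C2 and Cfb both overlap Gm20547 on their own strand in GENCODE. C2 also overlaps Zbtb12 on the opposite strand in GENCODE's longer gene models, but not in RefSeq, which places Zbtb12 at chr17:34894559-34896867. The gene model counted is not named in the sources used here. Of the deposited identifiers 99.8% matched RefSeq, and Gm20547 has no row of that name in the deposited table. The labels do not say whether strand was used in counting. Zbtb12, a zinc finger gene named here after its values were seen, had 4.68, 6.11 and 5.88 CPM in KO 1, 2 and 3, against 3.46, 3.27 and 3.28 CPM in WT 1, 2 and 3. Its groups did not overlap, and its log2 fold change was 0.74 ± 0.15 (edgeR adjusted p 0.125, and 0.0322 without KO 1). Its counts were 1.07% to 1.66% of those of C2, so C2 was read far above it in every library.

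C4b, whose product is cut to form the scaffold of that convertase, had 1446, 1627 and 1192 CPM in KO 1, 2 and 3, against 1529, 1521 and 1364 CPM in WT 1, 2 and 3. The lowest and the highest library were both labelled KO. The means were 1422 ± 219 CPM in the libraries labelled KO and 1471 ± 93.2 CPM in those labelled WT (SD, n = 3 each), a difference inside the spread. The log2 fold change was -0.049 ± 0.15 (edgeR adjusted p 0.883), and it changed sign to 0.071 when libraries were scaled by size alone and to 0.063 without KO 3. C4a, the neighbouring copy known in mice as sex-limited protein, aligned to C4b at 95.9% identity over 5378 transcript bases. It took 5.04% to 5.24% of the summed C4 counts in every library. How reads shared by the copies were counted is unknown, so the counts of both are uncertain.

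Masp1, a protease of the lectin pathway, had counts of 160, 198 and 175 in KO 1, 2 and 3, against 255, 267 and 209 in WT 1, 2 and 3. Scaled, these were 2.38, 2.84 and 2.35 CPM in the libraries labelled KO, against 4.16, 3.98 and 3.41 CPM in those labelled WT. All libraries labelled KO were below all labelled WT. The log2 fold change was -0.61 ± 0.17 (SE), with an edgeR p of 0.0073 before and 0.159 after adjustment, and a DESeq2 adjusted p of 0.0293. The counts were the lowest of the 9, and the exact binomial 95% interval of the unscaled CPM was 2.63 to 3.49 in KO 2 and 2.89 to 3.81 in WT 3, which overlap. These intervals cover counting error only. Masp1 overlaps Rtp4 and 2 predicted genes on the opposite strand, and Rtp4 had 7.86, 11.3 and 10.9 CPM in KO 1, 2 and 3, against 8.22, 7.56 and 8.15 CPM in WT 1, 2 and 3.

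Serping1 encodes C1 inhibitor, which blocks C1r, C1s and the MASP proteases. It had 512, 723 and 699 CPM in KO 1, 2 and 3, against 525, 546 and 465 CPM in WT 1, 2 and 3. KO 2 and KO 3 were above every library labelled WT, while KO 1 lay below WT 1 and WT 2. The means were 644 ± 116 CPM in the libraries labelled KO and 512 ± 42.1 CPM in those labelled WT (SD, n = 3 each). The log2 fold change was 0.33 ± 0.16 (SE), with an edgeR adjusted p of 0.286, and of 0.0603 without KO 1.

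C3 is the central component, cut by both convertases. It had 2063, 2842 and 3680 CPM in KO 1, 2 and 3, against 2060, 1567 and 1576 CPM in WT 1, 2 and 3. KO 1 stood barely above WT 1, and the other libraries were well apart. The means were 2862 ± 808 CPM in the libraries labelled KO and 1734 ± 282 CPM in those labelled WT (SD, n = 3 each). Its log2 fold change was 0.72 ± 0.23 (SE), with an edgeR adjusted p of 0.183 and an unadjusted one of 0.015. It was past the threshold with DESeq2 (adjusted p 0.0258) and in edgeR without KO 1 (adjusted p 0.0456, log2 fold change 0.91). Relative to C4b in TPM, C3 stood at 1.53, 1.86 and 3.30 in KO 1, 2 and 3, against 1.43, 1.09 and 1.24 in WT 1, 2 and 3. These ratios did not overlap between the groups.

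Cfb, the protease of the alternative convertase and the closest relative of C2, had 449, 441 and 375 CPM in KO 1, 2 and 3, against 511, 662 and 481 CPM in WT 1, 2 and 3. All libraries labelled KO were below all labelled WT, opposite in side to C2. The means were 421 ± 40.6 CPM in the libraries labelled KO and 551 ± 97.1 CPM in those labelled WT (SD, n = 3 each). Its log2 fold change was -0.39 ± 0.15 (SE), with an edgeR adjusted p of 0.231 and an unadjusted one of 0.0369, and a DESeq2 adjusted p of 0.11. The ratio of C2 to Cfb in TPM was 0.840, 1.30 and 1.39 in KO 1, 2 and 3, against 0.632, 0.296 and 0.504 in WT 1, 2 and 3. It averaged 1.18 ± 0.296 in the libraries labelled KO and 0.477 ± 0.169 in those labelled WT (SD, n = 3 each). This ratio had to separate the groups, because C2 was higher and Cfb lower in all libraries labelled KO. It is therefore not a result beyond those of the 2 genes. An exact two-sided permutation test of 3 libraries against 3 cannot go below p = 0.1.

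C4b, Cfb and C2 lie in 1 stretch of chromosome 17, yet their log2 fold changes were -0.049, -0.39 and 0.92. Apart from C4a, 20 other genes were tested within 100 kb of the stretch. Their log2 fold changes lay between -0.81 and 0.74, with a median of -0.054. Of these 20 genes, 3 were higher and 3 lower in all libraries labelled KO than in any labelled WT, near the 13.7% and 12.5% of all genes tested. C2 was the highest of the stretch, with Zbtb12 next to it.

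**Figure D3:**
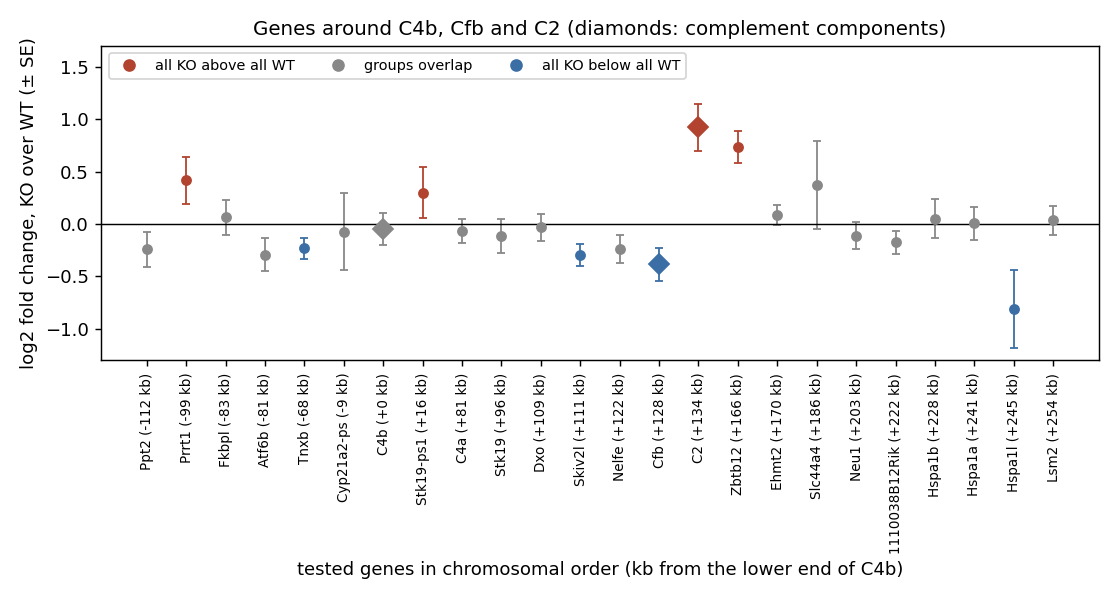
The log2 fold change of the libraries labelled KO over those labelled WT (y, ± SE) for tested genes around C4b, Cfb and C2. C4a and 20 other tested genes within 100 kb are included. Genes stand in chromosomal order, with the distance from the lower end of C4b (x). C2 and its neighbour Zbtb12 are the highest points, Cfb lies below 0 and C4b lies near 0.

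The rest of the pathway was read from lists of 55 other complement genes by role, of which 40 were tested and 9 had no counts in any library. None of the 40 passed edgeR's adjusted test, beside 0.0168% of all genes tested. At an unadjusted p under 0.05, 13 were higher and 2 lower, beside 9.66% and 9.71% of all genes tested, and their log2 fold changes had a median of 0.27. Groups without overlap were found for 7 genes on the higher side and 3 on the lower side, beside 13.7% and 12.5%. DESeq2 called 6 higher and 1 lower, beside 2.89% and 4.27% of the genes it adjusted. Without KO 1, edgeR called 6, all higher, beside 2.08% of genes called higher.

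Among 11 tested genes of recognition molecules and C1 proteases, 3 had an unadjusted p under 0.05, all higher, beside 9.66% of all genes tested. C1ra, the protease that C1q activates, had 182, 253 and 256 CPM in KO 1, 2 and 3, against 178, 134 and 137 CPM in WT 1, 2 and 3. KO 1 was again close to WT 1, and the log2 fold change was 0.63 ± 0.17. Its adjusted p was 0.157 in edgeR, 0.0383 in edgeR without KO 1 and 0.0192 with DESeq2. Its copy C1rb had a log2 fold change of 0.64 ± 0.17. The adjusted p of C1rb was 0.155 in edgeR, 0.0371 in edgeR without KO 1 and 0.0209 with DESeq2. C1rb took at most 15.4% of the C1r counts in any library. It aligned to C1ra at 97.9% identity over 2431 transcript bases, so the copies are uncertain and may be 1 signal. C1s1, the substrate of C1r and the most abundant of the list, had a log2 fold change of 0.29 ± 0.14. Fcna, a ficolin of the lectin pathway, had one of 0.66 ± 0.26, with an unadjusted p of 0.038. Masp1 thus stood on the other side from these initiators. Masp2, at only 23 to 63 counts per library, had a log2 fold change of -0.74 ± 0.36 (edgeR adjusted p 0.294). Colec11 of the same list, at 31 to 93 counts, had one of 0.85 ± 0.41 (edgeR adjusted p 0.290). The mannose-binding lectins Mbl1 and Mbl2 had no counts in any library.

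Among 5 tested genes of the alternative pathway, 4 had an unadjusted p under 0.05, all higher, beside 9.66% of all genes tested. Cfd, factor D, had 13292, 15273 and 18433 CPM in KO 1, 2 and 3, against 11370, 4611 and 7133 CPM in WT 1, 2 and 3. Its groups did not overlap, and its log2 fold change was 1.02 ± 0.32 (adjusted p 0.182 in edgeR and 0.0132 with DESeq2). Cfb, its substrate, was lower in the same libraries. Cfp, properdin, which stabilises the convertase, had a log2 fold change of 0.43 ± 0.12 with no overlap between groups (adjusted p 0.157 in edgeR and 0.0303 with DESeq2).

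Of 7 genes of the terminal pathway, 3 were tested. None had an unadjusted p under 0.05, beside 9.66% higher and 9.71% lower over all genes tested. C7 and C6 averaged 79.3 ± 25.7 and 78.8 ± 16.5 TPM (SD, n = 6). They could not be ordered by level, C7 being higher in 3 of 6 libraries. C7 had a log2 fold change of 0.43 ± 0.26, C6 one of -0.32 ± 0.20 and C8g one of 0.28 ± 0.27. Hc, which encodes C5, had 0 to 5 counts per library, and C9 had 0 to 8. C8a and C8b had no counts in any library. Transcripts for the C3-cleaving part of the cascade were thus abundant while those of C5 and C9 were at or near the floor of 3 counts.

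Of 12 tested regulators, 2 were higher and 2 lower at an unadjusted p under 0.05, beside 9.66% and 9.71% of all genes tested. Their median log2 fold change was 0.04. Thbd, thrombomodulin, had a log2 fold change of 0.76 ± 0.23, and Cd59a, the inhibitor of the membrane attack complex, one of -0.73 ± 0.25. Cd59b, a copy at 83.2% identity over 739 transcript bases, had one of -0.53 ± 0.19. Clu, clusterin, had one of 0.36 ± 0.14 and was the most abundant regulator by mean TPM, though below Cd59a in WT 2 and WT 3. DESeq2 called Thbd (adjusted p 0.0271) and Cd59a (adjusted p 0.047), and edgeR did not. Of 9 receptors, 4 were higher at an unadjusted p under 0.05, beside 9.66% of all genes tested. The log2 fold changes of the 9 had a median of 0.39. Vsig4, a macrophage receptor for C3b, had 4.87, 5.57 and 11.8 CPM in KO 1, 2 and 3, against 2.87, 3.86 and 3.28 CPM in WT 1, 2 and 3. Its groups did not overlap, with a log2 fold change of 1.15 ± 0.34, while C3ar1, the receptor for C3a, had one of 0.45 ± 0.17 and Itgam, a chain of complement receptor 3, one of 0.32 ± 0.12. Without KO 1, edgeR's adjusted p was 0.0395 for C3ar1 and 0.0448 for Itgam, and DESeq2's was 0.0208 for Vsig4 with all libraries. Lrp1, the most abundant of the list, had a log2 fold change of -0.10 ± 0.15. Itgax had the lowest, at -0.93 ± 0.45 (edgeR adjusted p 0.302), while 6 of the 9 receptors were above 0.

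**Figure D4:**
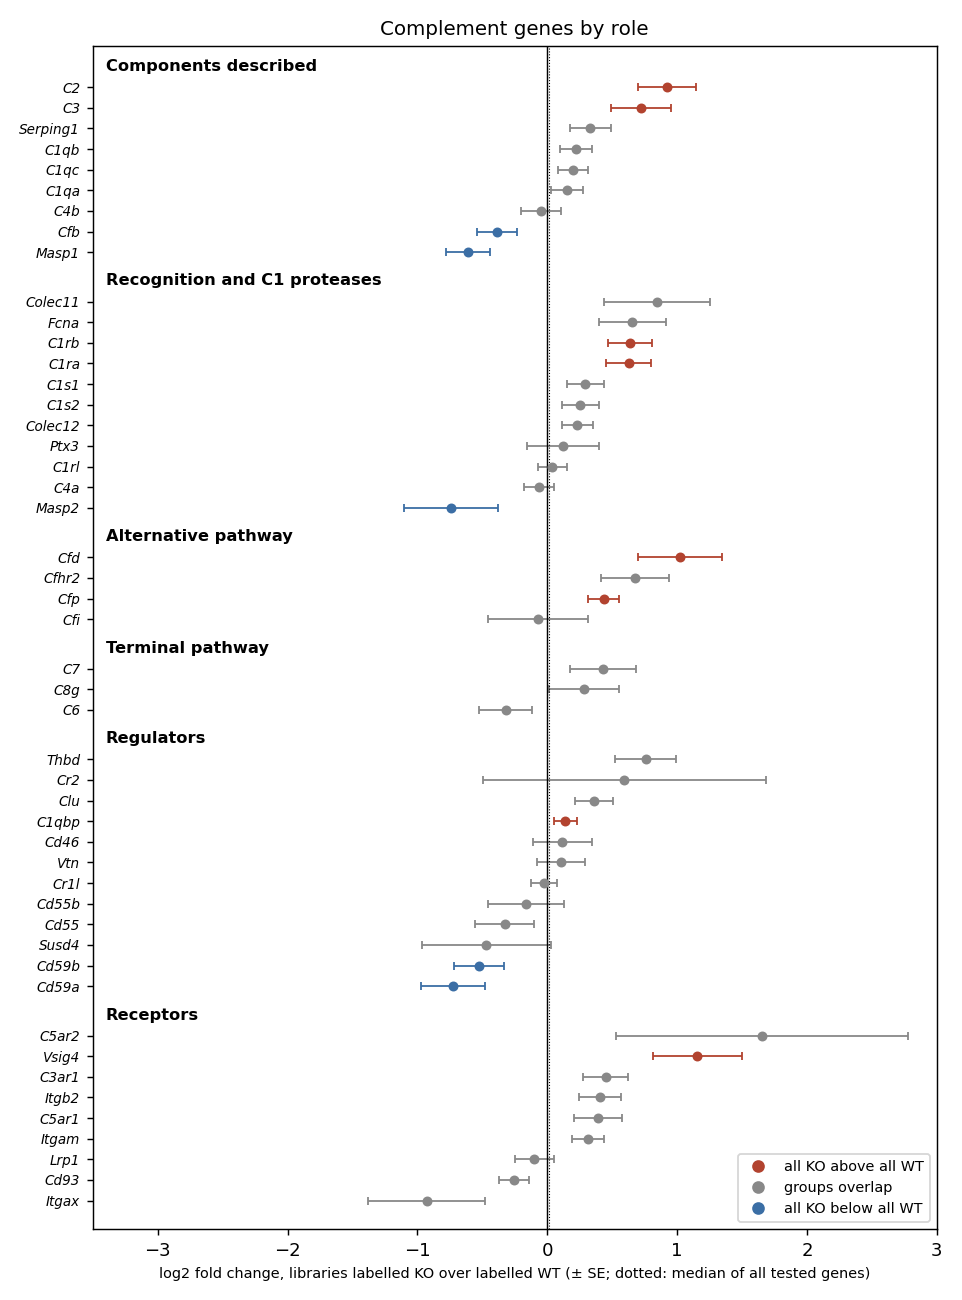
Log2 fold change of the libraries labelled KO over those labelled WT (x, ± SE) for the 9 components and other complement genes tested, grouped by role (y), with colour marking groups that do not overlap and a dotted line at the median of all genes tested. C2 and C3 lie at 0.92 and 0.72, Cfb and Masp1 at -0.39 and -0.61, and Cfd lies at 1.02.

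Markers of other cell types of the fat pad were set beside these values, and none passed edgeR's adjusted test. Of 14 mesothelial markers, the surface layer of visceral fat, 8 were higher at an unadjusted p under 0.05, beside 9.66% of all genes tested, and the median difference was 0.53 on the log2 scale. Their summed level was 880 to 1095 TPM in the libraries labelled KO, against 527 to 884 TPM in those labelled WT. Of 16 fibroblast and progenitor markers, 5 were higher and 2 lower at that threshold, beside 9.66% and 9.71%, with sums of 3162 to 4790 TPM in the libraries labelled KO and 2970 to 3274 TPM in those labelled WT. Both sums overlapped between the groups. The sums of 16 adipocyte markers were 98826 to 105659 TPM in the libraries labelled KO and 106045 to 112584 TPM in those labelled WT, without overlap. Among these markers, 1 was higher and 2 lower at that threshold, beside 9.66% and 9.71%. Lymphocyte markers summed to 36.9 to 53.9 TPM in libraries labelled KO and 19.2 to 33.1 TPM in those labelled WT, without overlap. Of these 12 markers, 2 were higher and 1 lower at that threshold, beside 9.66% and 9.71%. Ms4a1 and Mzb1, of B-lineage cells, had log2 fold changes of 1.04 ± 0.42 and 1.43 ± 0.33. Their counts per library were 71 to 403 and 21 to 97. Cd8a, of T cells, had one of -1.71 ± 0.46 at 7 to 58 counts per library. Of the other T cell markers, Cd3e had one of 0.68 ± 0.37, Cd3d one of -0.16 ± 0.37 and Cd4 one of -0.42 ± 0.23. The lymphocyte markers thus did not share a direction, and neither did those of T cells. Endothelial markers summed to 208 to 225 TPM in libraries labelled KO and 231 to 286 TPM in those labelled WT, also without overlap. Of these 12 markers, 0 were higher and 7 lower at an unadjusted p under 0.05, beside 9.66% and 9.71% of all genes tested. Their median log2 fold change was -0.41. Neutrophil and dendritic markers overlapped, at 32.1 to 37.1 TPM in libraries labelled KO and 27.8 to 47.1 TPM in those labelled WT. The part of these cell types in the levels of C3, C2, Cfb and Serping1 was not tested. Of 8 hepatocyte markers, the liver being the main source of plasma complement, Fgb was at 0 and the sums were 12.4 to 18.2 TPM in libraries labelled KO and 17.4 to 20.2 TPM in those labelled WT. None of the 8 epididymal markers passed the filter, and 5 were at 0.

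The genes with the most similar pattern over the 6 libraries were named by the root mean square difference of centred log2 CPM. For C4b the nearest was its copy C4a, at 0.020, followed by Anxa3, Grb2, H2-D1 and Supt7l at 0.041 to 0.053. For C1qb the nearest were Rpl11, Rps10, Slc25a14, Nucks1 and Taco1, at 0.041 to 0.050. For C3 they were Mpzl2, Slc1a3, Cyp39a1, Kif5c and Ccdc171, at 0.072 to 0.087. None of the 9 components was among the nearest genes of these 3.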

How the data were processed

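Total RNA of epididymal white adipose tissue was sequenced as stranded polyadenylated libraries, 3 labelled KO and 3 labelled WT, per the labels' protocols. Adipocytes are the labelled cell type, yet the protocol describes excised tissue. The genome build mm10 and, with no roles, the tools StringTie 2.1.3b, HISAT2 2.1.0, Bowtie2 2.3.4.1, FastQC 0.11.7 and bcl2fastq 2.20.0 are listed in the submitters' processing notes. Strand use and the treatment of multiply matching reads are not given in the sources used here.

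The authors deposited whole-number read counts per gene with no normalization, which entered every test. The deposited TPM values, scaled by the authors for length and library, gave levels between genes. The deposited FPKM values were used in 1 alternative.

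Of 45777 genes, filterByExpr (minimum count 10, minimum total 15) kept 17820. Counts were scaled by TMM and fitted on the label in edgeR 4.0.16 (R 4.3.3, robust quasi-likelihood, two-sided, Benjamini-Hochberg over all genes tested, threshold 0.05). Standard errors were derived from the F statistic. The biological coefficient of variation was 0.200. DESeq2 1.42.0, limma voom 3.58.1, other scalings, no filter, leaving out each library, and a replicate block were alternatives. Log2 CPM used a prior count of 2. The procedure was tested on simulated counts. No pair of libraries agreed within sampling noise (lowest chi-square 50.7 per degree of freedom). Coordinates are RefSeq GRCm38.p6, to which 99.8% of identifiers matched, and overlaps and transcript identity came from the GENCODE annotation.

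The components and lists were chosen with earlier results of these data known. The text names all 9 components, Pak4, from each other complement list the 3 genes of smallest p and the most abundant one, and the 5 genes of most similar pattern for C1qb, C3 and C4b. From the marker, interferon and acute phase lists it may name up to 4 genes of smallest p and the 2 most abundant. Genes named beyond that rule are neighbours, copies, pathway genes and T cell markers chosen after their values were seen. The values of 1 gene of the lists are not reported here.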

Additional observations from a re-analysis of the deposited data

How the results depend on the processing

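The number of genes called over the whole table depended on the tool and on single libraries: it was 3 in edgeR, 1152 with DESeq2, 5 with limma voom, 1 with the replicate block, and 1 to 1016 when 1 library was left out, with 1016 without KO 1, 5 without WT 1, and 1 without KO 3, WT 2 or WT 3. Of the 9 components edgeR called 0, DESeq2 called 3 (C2, C3 and Masp1), and leaving out 1 library gave 0 to 2, the 2 being C2 and C3 without KO 1. Of the other complement genes edgeR called 0, DESeq2 7, and leaving out 1 library gave 0 to 6. The cause was not tested. C4b changed sign to a log2 fold change of 0.071 with library size alone, and to 0.063 without KO 3, within -0.16 to 0.063 when 1 library was left out. With library size alone the all-gene median was higher by 0.12 (log2). That scaling put 7 of 9 components above 0 in place of 6, and 31 of the 40 other complement genes in place of 27. The median over the components stayed between 0.12 and 0.32 over 12 alternatives. The mean ratio of C1qa to C1qb was 0.765 in TPM and 0.750 from counts not divided by length, the FPKM ratio being equal to that in TPM by construction, and all 15 genes of similar pattern were shared with a prior count of 0.5.

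Libraries with the same number did not deviate together (correlations -0.170, -0.022 and 0.048). No pairing by number was seen, though 3 libraries a group cannot exclude a weak one. The replicate block called 0 components and 0 other complement genes. Masp1 is limited by its counts of 160 to 267. With 3 libraries a group, the adjusted p over the alternatives reached from 0.00271 to 0.421 for C2, 0.0258 to 0.464 for C3, 0.114 to 0.525 for Cfb and 0.0293 to 0.421 for Masp1.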

Other observations

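Interferon-induced and acute phase genes, whose inducers are known to act on several complement genes, were read beside the components. Of 24 tested interferon genes, 21 had a log2 fold change above 0, with a median of 0.26. At an unadjusted p under 0.05, 7 were higher and 1 lower, beside 9.66% and 9.71% of all genes tested, and none passed edgeR's adjusted test. Their summed level was 402 to 558 TPM in the libraries labelled KO and 351 to 399 TPM in those labelled WT, without overlap. Irf1, a transcription factor of the interferon response, had 31.7, 48.3 and 43.2 CPM in KO 1, 2 and 3, against 20.3, 24.6 and 23.5 CPM in WT 1, 2 and 3, with a log2 fold change of 0.85 ± 0.16 (edgeR adjusted p 0.119, and 0.024 without KO 1). Cmpk2 and Rsad2, which act against viruses, had log2 fold changes of 0.66 ± 0.15 and 0.58 ± 0.15, and the edgeR adjusted p of Cmpk2 was 0.135, or 0.0368 without KO 1. Whether these genes bear on C2 or C3 was not tested.

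Of 21 tested acute phase and NF-kappaB genes, 3 were higher and 2 lower at an unadjusted p under 0.05, near the 9.66% and 9.71% of all genes tested, with a median log2 fold change of 0.033. Orm1, an acute phase glycoprotein, had 167, 104 and 60.9 CPM in KO 1, 2 and 3, against 272, 515 and 299 CPM in WT 1, 2 and 3. Its groups did not overlap, and its log2 fold change was -1.71 ± 0.41 (edgeR adjusted p 0.15, and 0.04 without KO 1). Hp, haptoglobin and the most abundant of the list, had one of 0.17 ± 0.20, and Socs3, an inhibitor of cytokine signalling, one of 0.88 ± 0.26. Of the 20 macrophage markers, Msr1 and Trem2 had log2 fold changes of 0.66 ± 0.10 and 1.01 ± 0.24. Their edgeR adjusted p was 0.0925 and 0.145, and without KO 1 it was 0.024 and 0.0245. Mrc1 and Timd4 of the same list had log2 fold changes of 0.51 ± 0.14 and 0.80 ± 0.23. The edgeR adjusted p of Mrc1 was 0.156, or 0.0309 without KO 1, and that of Timd4 was 0.169. In this list, 19 of the 20 markers had a log2 fold change above 0. DESeq2 called Irf1, Cmpk2, Rsad2, Orm1, Socs3, Msr1, Trem2, Mrc1 and Timd4, with adjusted p between 6.67e-05 and 0.0301. These genes were named for a small edgeR p in the same counts, so the calls are not separate support. By list, DESeq2 called 3 of 24 interferon genes and 4 of 20 macrophage markers higher and none lower. Of 21 acute phase and NF-kappaB genes it called 1 higher and 2 lower. Its shares over all the genes it adjusted were 2.89% higher and 4.27% lower.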
